A study of Homo sapiens with 27 samples.

Results

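The 10 genes MTOR, RPTOR, RICTOR, MLST8, AKT1S1, TSC1, TSC2, RHEB, RPS6KB1 and EIF4EBP1 encode the subunits of the mTOR kinase complexes, their nearest upstream regulators and the best known substrates of mTOR complex 1. They were taken by name, as 10 of the 17055 named genes on the array, through all 12 probes that carry these names. TSC1 has 3 named probes, here called probe A (ILMN_2246510), probe B (ILMN_1797367) and probe C (ILMN_1758378), and each of the other 9 genes has 1. RNA of SK-N-BE(2)c, a MYCN-amplified human neuroblastoma cell line, was measured on 27 Illumina bead arrays with biotin-labelled cRNA. The control group (0 h) had 4 arrays, and its label names neither a vehicle nor hypoxia. Cells kept in hypoxia with the vehicle DMSO gave 3 arrays at 24 h, 4 at 48 h and 4 at 72 h. Cells kept in hypoxia with PP242, an inhibitor of the mTOR kinase that blocks both of its complexes, gave 4 arrays at each of the same times. No treated normoxic group was among the samples, so PP242 was compared with DMSO only in hypoxia, and only 1 cell line was used. The labels give no oxygen level or PP242 dose, and number the samples 1 to 4 within each group (1 to 3 for DMSO at 24 h) without saying what a number shares or whether the samples were separate cultures. The p-values therefore measure the spread between these samples, which may be technical.

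mTOR is a serine/threonine kinase that works in a pair of complexes. Complex 1 holds RPTOR (raptor), MLST8 and the inhibitory subunit AKT1S1 (PRAS40), and it promotes translation and growth by phosphorylating S6 kinase 1 (RPS6KB1) and the translation repressor 4E-BP1 (EIF4EBP1). Complex 2 holds RICTOR and MLST8 and phosphorylates AKT. The small GTPase RHEB switches complex 1 on at the lysosome, and the TSC1-TSC2 complex switches RHEB off. Low oxygen is known to restrain complex 1 through DDIT4 (REDD1), which acts by way of TSC2. The arrays measure RNA and not kinase activity or phosphorylation.

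RefSeq promoter sequence (GRCh38.p14, 250 bases before to 50 after the gene start) was used for 7 of the 10 genes. No promoter of MLST8, AKT1S1 or EIF4EBP1 was used, so nothing is said of theirs. The promoters of RHEB and MTOR are printed because these genes encode the activator of complex 1 and its kinase, and because hypoxia-inducible factors recognise the core letters ACGTG and GCGTG. Each sequence runs 5′ to 3′ on the gene's strand, which is the minus strand for both, and capitals mark a match to either core on either strand.
RHEB promoter, chr7:151519846-151520145: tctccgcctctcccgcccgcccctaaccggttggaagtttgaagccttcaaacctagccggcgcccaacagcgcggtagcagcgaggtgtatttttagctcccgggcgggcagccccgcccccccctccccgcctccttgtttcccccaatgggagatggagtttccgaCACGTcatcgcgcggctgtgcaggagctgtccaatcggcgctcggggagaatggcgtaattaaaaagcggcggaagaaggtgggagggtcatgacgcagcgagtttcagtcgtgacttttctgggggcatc
MTOR promoter, chr1:11262502-11262801: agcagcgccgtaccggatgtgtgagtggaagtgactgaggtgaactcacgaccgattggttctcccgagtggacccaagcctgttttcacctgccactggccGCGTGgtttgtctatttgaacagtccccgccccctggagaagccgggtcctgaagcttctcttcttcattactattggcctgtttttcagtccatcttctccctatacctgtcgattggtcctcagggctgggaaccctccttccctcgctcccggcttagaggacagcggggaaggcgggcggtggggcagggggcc
In the RHEB promoter ACGTG lay on the strand opposite to the gene, with the first base of the capitals 81 bases before the gene start. In the MTOR promoter GCGTG lay on the gene's own strand, 148 bases before the start. Of the 35116 promoters of the table, 21.4% held ACGTG and 36.5% held GCGTG on either strand, and 48.4% held at least 1 of them. Among the 7 genes whose promoter was used, 4 held at least 1 core. Of these 7, 0 held CACGTG, the E-box of MYC family factors, which 7.26% of all promoters held and which overlaps ACGTG. These matches describe letters in a window and not binding.

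Array medians lay between 98 and 113 intensity units, and 20729 to 22843 of the 48107 probes per array were above a background estimated from each array. Intensities were background corrected, put on the log2 scale and quantile normalized, and 31318 probes above background on at least 3 arrays were tested. Of the neuroblastoma markers with a named probe, 6 of 6 were above background on at least 14 arrays (MYCN, PHOX2A, TH, ISL1, HAND2 and GATA3). The mean log2 level of this list ranged from 9.62 to 10.27 over the arrays. Of the markers of other cell types, 2 of 6 for fibroblasts (DCN and LUM), 1 of 4 for immune cells (CD14), 0 of 1 for Schwann cells, 0 of 3 for endothelium and 0 of 2 for blood were above it. No 2 arrays held identical values.

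RNA of 8 of the 10 genes was above background on 26 or 27 of the 27 arrays by at least 1 probe. MTOR, MLST8, RHEB, RPS6KB1, EIF4EBP1 and TSC1 probes A and B were above background on all 27 arrays, RPTOR and AKT1S1 on 26, and TSC1 probe C on 25. RICTOR was above background on 7 of 27 arrays, at intensities of 94 to 121, and TSC2 on 5 of 27, at 94 to 118. The probes of the defining subunit of complex 2 and of the GTPase-activating subunit of the TSC complex thus sat near background, and no fold is given for either. All 12 probes passed the filter on dim probes.

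**Figure D1:**
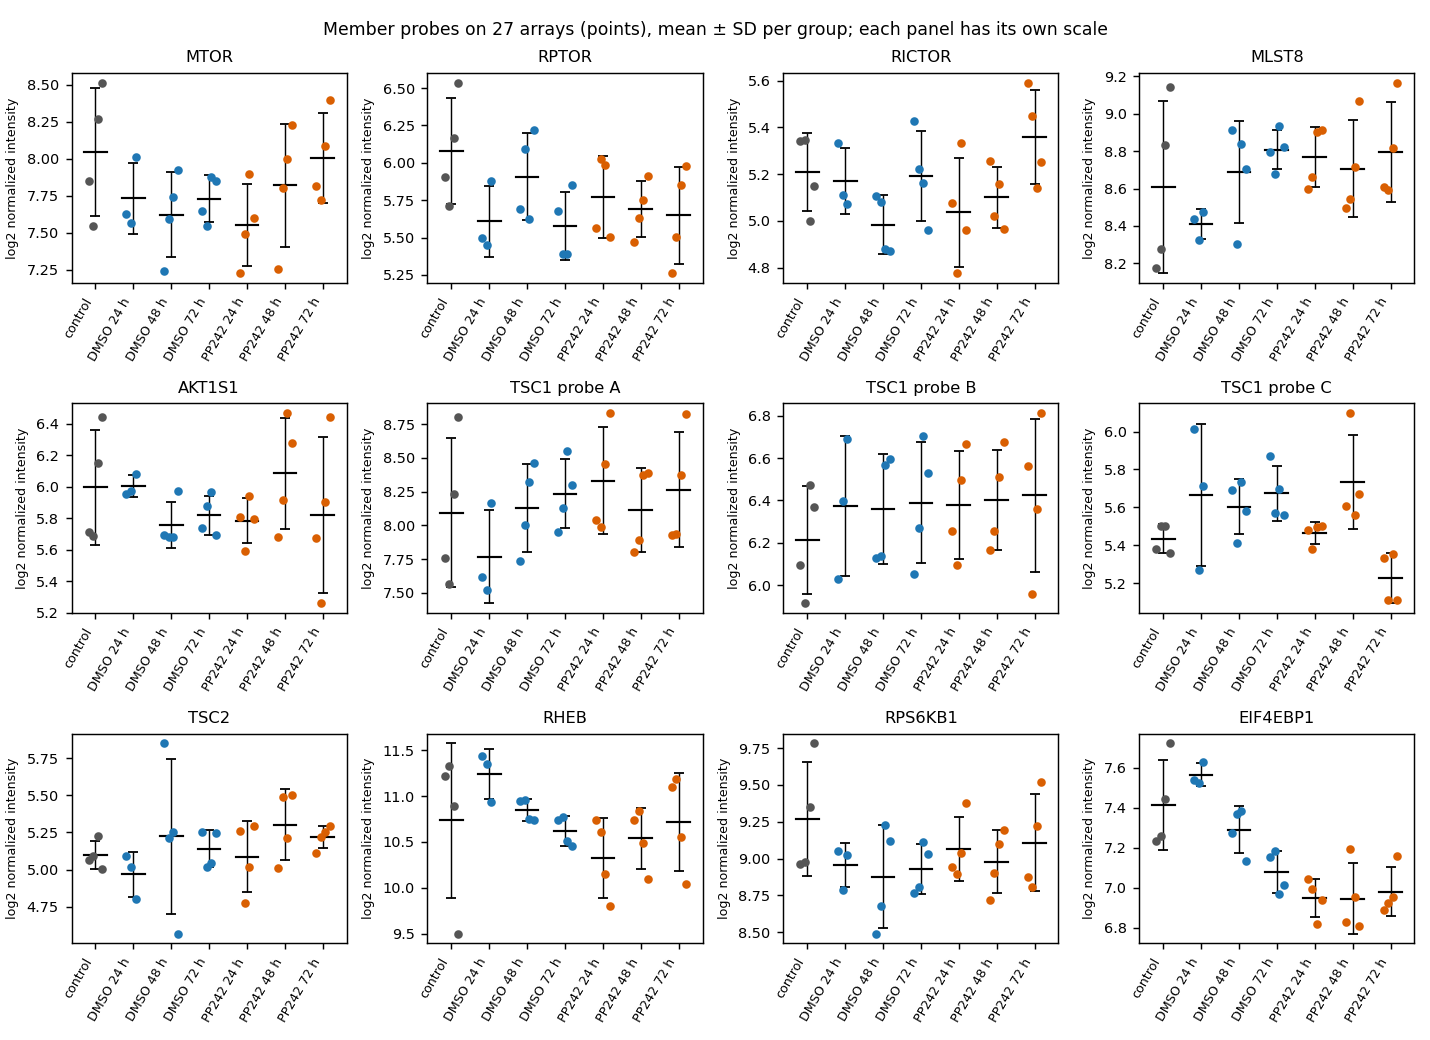
Log2 normalized intensity (y axis) of the 12 probes in the 7 groups (x axis), with each array as a point and the group mean with its SD as bars; each panel has its own scale, so levels compare within a probe only. EIF4EBP1 had its highest mean in DMSO at 24 h (7.56) and its lowest in PP242 at 48 h (6.95).

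In the fit not blocked on the sample number, EIF4EBP1 was the only member to pass the test for PP242 against DMSO at 24 h. It was also the only one for DMSO at 72 h against 24 h, and both comparisons use the DMSO arrays of 24 h. In the control its intensities were 229, 244, 296 and 253 in samples 1 to 4. In DMSO they were 295, 261 and 307 at 24 h, then 206, 227, 239 and 237 at 48 h, and 211, 215, 193 and 198 at 72 h. In PP242 they were 215, 183, 186 and 182 at 24 h, then 201, 196, 162 and 167 at 48 h, and 190, 207, 192 and 172 at 72 h. The DMSO arrays at 24 h were thus high and those at 72 h lower, while the PP242 arrays were low from 24 h on. The group means on the log2 scale ran from DMSO at 24 h through control, DMSO at 48 h, DMSO at 72 h, PP242 at 72 h and PP242 at 24 h down to PP242 at 48 h. In that order only DMSO at 48 h and at 72 h were neighbours further apart (0.21) than the larger of their SDs.

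At 24 h EIF4EBP1 was lower in PP242 than in DMSO, 6.95 ± 0.096 (SD, n = 4) against 7.56 ± 0.057 (n = 3) on the log2 scale. The difference was -0.62 (SE 0.13, 95% interval -0.88 to -0.35, limma adjusted p = 0.00127 over all probes), a ratio of 0.653. The groups did not overlap, and the difference within sample numbers was -0.49, -0.53 and -0.81 in the 3 pairs. At 48 h it was -0.34 (SE 0.12, limma adjusted p = 0.0947), with PP242 below DMSO in 4 of 4 pairs. At 72 h it was -0.10 and did not pass limma's test, with a 95% interval of -0.34 to 0.15 and PP242 lower in 3 of 4 pairs. Neither later difference passed the test. The change of the PP242 effect from 24 h to 72 h was 0.52 (SE 0.17, limma adjusted p = 0.0681), so these effects were not shown to differ here. Over 25 alternatives this adjusted p ran from 0.0115 to 0.171, and it passed the threshold in 7.

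In DMSO alone EIF4EBP1 fell by 0.49 from 24 h to 72 h (SE 0.13, limma adjusted p = 0.0131), with 3 of 3 pairs lower and no overlap. The call was lost without sample 3 of DMSO at 24 h (adjusted p = 0.0579). This comparison and that of PP242 with DMSO at 24 h share the 3 DMSO arrays of 24 h, in which EIF4EBP1 was highest. Against the control the DMSO groups differed by 0.15 at 24 h (limma adjusted p = 0.699), -0.12 at 48 h (adjusted p = 0.669) and -0.33 at 72 h (adjusted p = 0.0563), none of them past the threshold. The RefSeq gene table lists 2 EIF4EBP1 pseudogenes and 3 RHEB pseudogenes, and whether these probes also measure them was not tested.

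Across the 12 probes EIF4EBP1 made the only call between PP242 and DMSO at 24 h, 1 of 12, where 13.0% of all probes were called (6.27% higher and 6.77% lower in PP242). The median size of the difference was 0.19 over the 12 probes and 0.20 over all tested probes. At 48 h the count was 0 of 12 against 5.45% of all probes (2.47% higher, 2.98% lower, and 11.4% in all when blocked on the sample number), and 1 of the 12 had an unadjusted p under 0.05. At 72 h it was 0 of 12 against 4.47% (1.70% higher, 2.77% lower), again with 1 at an unadjusted p under 0.05. The counts of calls lie near the background shares and say nothing particular about the members. For the unadjusted threshold the share of all probes was not counted.

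**Figure D2:**
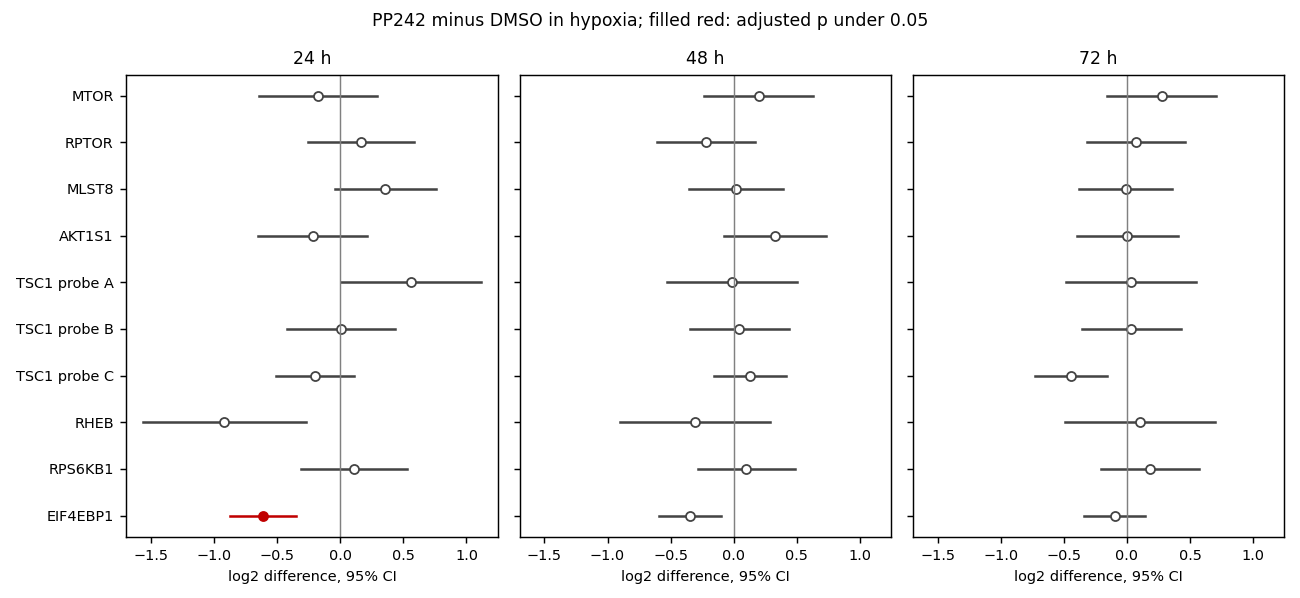
Log2 difference of PP242 minus DMSO (x axis, points, with 95% intervals) for 10 of the 12 probes (y axis) at 24, 48 and 72 h; RICTOR and TSC2, near background, are left out. EIF4EBP1 at 24 h (-0.62) is the only filled point, and RHEB lies furthest from 0 at 24 h (-0.92) with the widest interval.

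RHEB, the GTPase that activates complex 1, had the largest difference of the members at 24 h without passing the test. In DMSO at 24 h its intensities were 3613, 3019 and 2420, and in PP242 at 24 h they were 1887, 1457, 1144 and 830. The groups did not overlap, and the log2 difference was -0.92 (SE 0.31, 95% interval -1.56 to -0.27, limma adjusted p = 0.0519). Between same-numbered samples it was -0.70, -0.74 and -0.79. Blocking on the sample number gave -0.74 (limma adjusted p = 0.00450), and this fit called 3 of the 12 probes against 19.6% of all probes. Without any sample numbered 4 it was likewise -0.74 (limma adjusted p = 0.00969).

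At 48 and 72 h the RHEB groups overlapped. In DMSO its intensities were 1943, 2058, 1754 and 1993 at 48 h and 1810, 1846, 1491 and 1430 at 72 h. In PP242 they were 2044, 1698, 1098 and 978 at 48 h and 2254, 2809, 1473 and 793 at 72 h. The PP242 arrays spread over a wider range than the DMSO arrays at both times, lowest in sample 4. The difference was -0.31 at 48 h (limma adjusted p = 0.681) and 0.10 at 72 h (adjusted p = 0.929). The change of the effect from 24 h to 72 h was 1.02 (SE 0.43, limma adjusted p = 0.168), and without samples numbered 4 it was likewise 1.02 but passed (adjusted p = 0.0166). Over 25 alternatives this adjusted p ran from 0.0166 to 0.325, and it passed in 2. In the control RHEB stood at 2607, 2996, 2495 and 709, the last of these in sample 4.

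The 3 TSC1 probes did not move together. TSC1 encodes hamartin, the scaffold that stabilises TSC2. Probe A read 309, 261 and 417 in DMSO at 24 h and 358, 298, 414 and 470 in PP242 at 24 h, which overlap. Its difference was 0.56 (SE 0.27, limma adjusted p = 0.201), and 0.42 when blocked on the sample number (adjusted p = 0.0278). Probe B differed by 0.01 at 24 h, and probe C by -0.20, neither past the test.

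At 72 h TSC1 probe C read 131, 116, 124 and 114 in DMSO and 113, 109, 112 and 96 in PP242, and only 2 of these 4 PP242 arrays (samples 1 and 3) were above background. The difference was -0.45 on normalized values (SE 0.14, limma adjusted p = 0.0659), and the normalized groups did not overlap. Blocked on the sample number, its adjusted p was 0.0312, the 1 call of 12 in that fit, against 9.28% of all probes. Without samples numbered 4 the difference was -0.45 and the adjusted p 0.198. Probes A and B differed by 0.03 and 0.04 at 72 h. Over the 27 arrays probe A correlated with probe B at r = 0.74 and with probe C at r = -0.19. The dim probe C thus did not follow the others, and its difference at 72 h was not seen in probes A and B.

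MTOR itself, the kinase that PP242 targets, showed no difference past the test between the groups in the fit not blocked on the sample number. Its intensities were 322, 287, 474 and 387 in the control, and 311, 268 and 380 in DMSO against 233, 230, 308 and 244 in PP242 at 24 h. They were 203, 254, 284 and 351 in DMSO against 244, 263, 255 and 323 in PP242 at 48 h, and 267, 257, 297 and 299 against 295, 307, 334 and 306 at 72 h. All the groups overlapped on the normalized scale. The PP242 difference was -0.18 at 24 h (95% interval -0.65 to 0.29), 0.20 at 48 h (-0.24 to 0.63) and 0.27 at 72 h (-0.16 to 0.71), with limma adjusted p of 0.715, 0.730 and 0.634. These intervals leave room for changes of either sign, so equal levels are not shown.

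The other subunits and S6 kinase 1 gave no call for PP242 at any time. RPTOR, which brings substrates to complex 1, lay between 110 and 157 intensity units on the 27 arrays, and its PP242 differences ran from -0.22 at 48 h to 0.16 at 24 h. MLST8, shared by both complexes, lay between 373 and 667, and its largest PP242 difference was 0.36 at 24 h (limma adjusted p = 0.279), where all 4 PP242 arrays were above the DMSO arrays on the normalized scale. AKT1S1 lay between 113 and 156, with -0.22 at 24 h (groups without overlap, limma adjusted p = 0.603) and 0.33 at 48 h (adjusted p = 0.433). RPS6KB1 lay between 397 and 940, with differences of 0.11, 0.10 and 0.18 at the 3 times. In all, 4 of the 12 probes had groups without overlap at 24 h, 0 at 48 h and 1 at 72 h. The share of all probes without overlap was not counted, so nothing particular about the members follows from these counts.

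Hypoxia in DMSO against the 0 h control called none of the 12 probes at any time in the fit not blocked on the sample number. At 24 h 0.511% of all probes were called (0.447% higher, 0.0639% lower, and 1.34% in all when blocked on the sample number), at 48 h 7.40% (3.78% and 3.62%) and at 72 h 15.4% (7.45% and 7.94%). At an unadjusted p under 0.05 the members gave 1, 1 and 2 probes, and the share of all probes at that threshold was not counted. RPTOR had the next smallest p after EIF4EBP1 at 72 h. Its control intensities were 127, 123, 157 and 150 and those of DMSO at 72 h were 124, 110, 114 and 125, a log2 difference of -0.50 (SE 0.19, limma adjusted p = 0.0737). MTOR differed by -0.31, -0.42 and -0.31 at the 3 times (limma adjusted p of 0.650, 0.286 and 0.397). RPS6KB1 differed by -0.31, -0.39 and -0.34 (limma adjusted p of 0.614, 0.264 and 0.273). Blocked on the sample number, MTOR at 48 h and RPS6KB1 at 48 and 72 h were called (limma adjusted p of 0.0278, 0.0251 and 0.0370). In that fit RPTOR and EIF4EBP1 were also called at 72 h (limma adjusted p of 0.0205 and 0.0451). It called 4472 of all 31318 probes at 48 h and 7205 at 72 h. MLST8 and AKT1S1 differed by 0.20 and -0.18 at 72 h. RHEB differed by 0.51 at 24 h, 0.11 at 48 h and -0.12 at 72 h, and by 0.10, -0.30 and -0.53 without sample 4 of the control, none of them past the test.

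**Figure D3:**
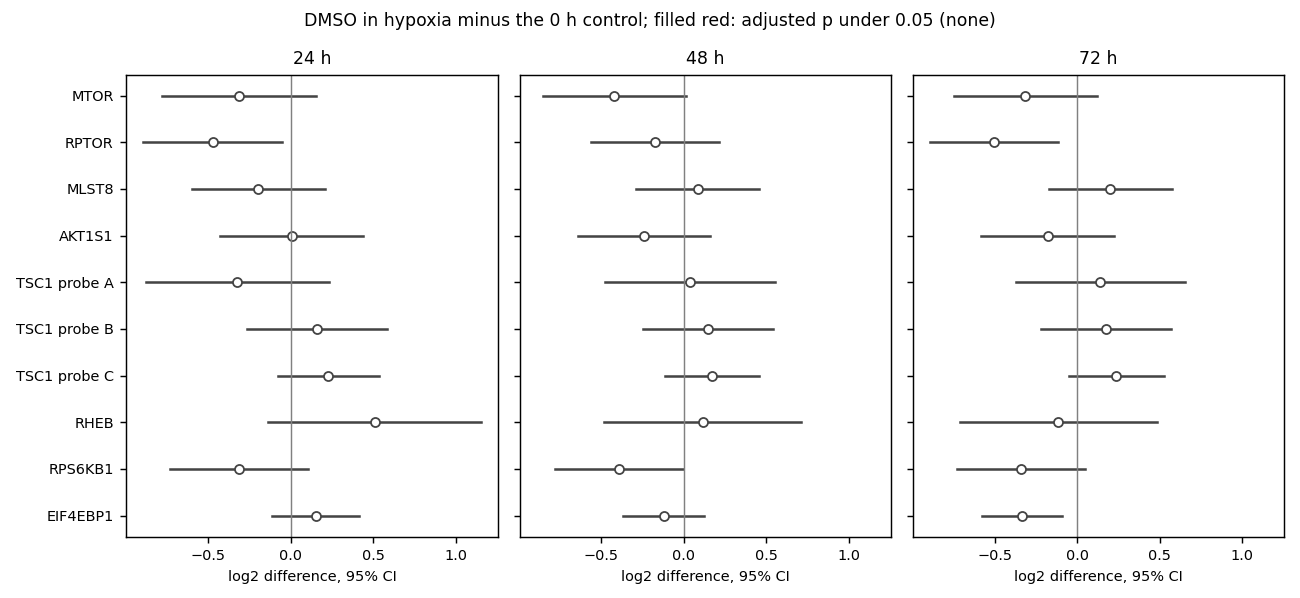
Log2 difference of DMSO in hypoxia minus the 0 h control (x axis, points, with 95% intervals) for 10 of the 12 probes (y axis) at 24, 48 and 72 h; no point passed the test. The intervals of RPTOR at 24 and 72 h, RPS6KB1 at 48 h and EIF4EBP1 at 72 h lie below 0 before adjustment over all probes.

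From 24 h to 72 h of hypoxia in DMSO, EIF4EBP1 was the 1 call of 12, beside 9.66% of all probes (4.53% higher, 5.13% lower). RHEB differed by -0.62 (SE 0.31, limma adjusted p = 0.261) and MLST8 by 0.40 (SE 0.20, adjusted p = 0.249), both with groups that did not overlap. The change of the PP242 effect between times passed the test for none of the 12 probes in this fit, and for RHEB or EIF4EBP1 from 24 h to 72 h under some alternatives given above. Over all probes 2.17% were called for the change from 24 h to 48 h (5.75% when blocked on the sample number), 8.25% from 24 h to 72 h and 0.0447% from 48 h to 72 h (1.69% when blocked). Without sample 1 of DMSO at 24 h the count from 24 h to 48 h was 308 in place of 680 probes, and leaving out single arrays moved that from 48 h to 72 h from 14 to between 1 and 189. Of the 72 neighbouring pairs in the members' orders of group means, 3 were further apart than the larger SD of the pair, in EIF4EBP1, in RHEB (DMSO at 24 h above DMSO at 48 h, 0.39) and in TSC1 probe C (control above PP242 at 72 h, 0.21).

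The sample number in the labels, for 3 and 4 against 1, gave more calls among the members than treatment or time did. Its comparisons hold 6 or 7 arrays a side, against 3 or 4 for a group. Blocked on the sample number, PP242 against DMSO at 24 h called 3 of 12, and so did DMSO at 72 h against control. That fit called 6129 and 7205 of all 31318 probes there. With the groups as terms, samples numbered 4 differed from those numbered 1 in 9 of the 12 probes, against 28.7% of all probes. Samples numbered 3 differed from those numbered 1 in 5 of 12 (13.8% of all probes), and samples numbered 2 in 0 of 12 (0.262%). In number 4 against 1, RHEB was lower by a log2 difference of -0.83 (SE 0.14, limma adjusted p = 2.40e-05). TSC1 probe A was higher by 0.73 (SE 0.10, adjusted p = 1.68e-06), MTOR by 0.57 (adjusted p = 9.07e-05) and RPS6KB1 by 0.51 (adjusted p = 0.000104). TSC1 probe B (0.44), RPTOR (0.41), AKT1S1 (0.38) and MLST8 (0.36) were also higher, and RICTOR, near background, was also called. EIF4EBP1 differed by 0.06 (adjusted p = 0.737).

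**Figure D4:**
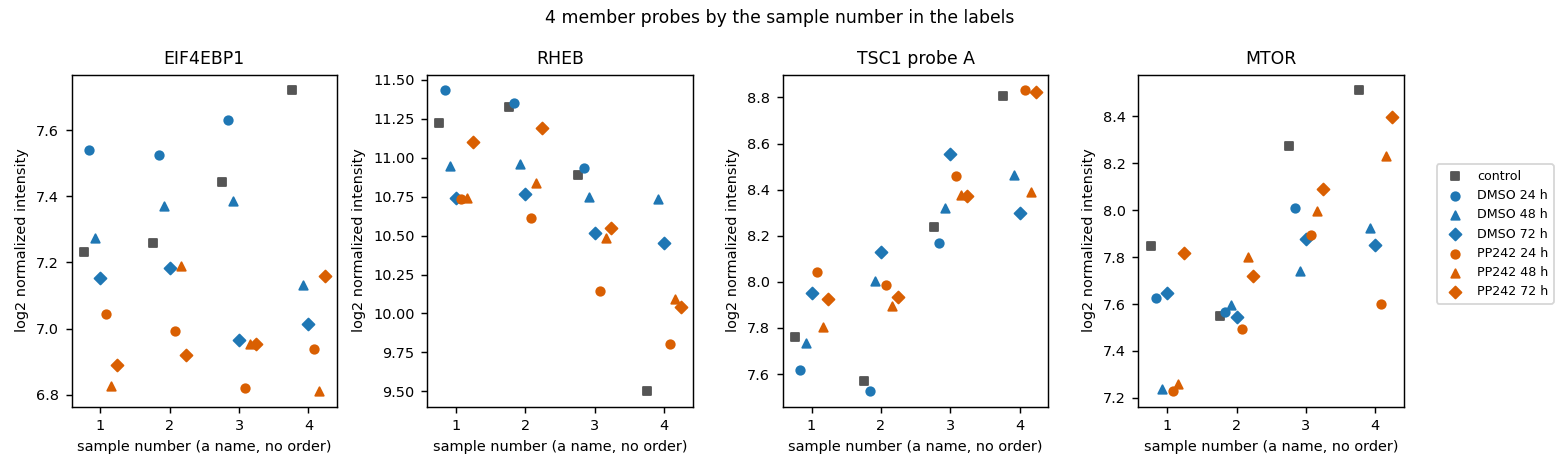
Log2 normalized intensity (y axis) of EIF4EBP1, RHEB, TSC1 probe A and MTOR by the sample number in the labels (x axis, a name without order), with colour and marker for the 7 groups. RHEB is lower and TSC1 probe A and MTOR are higher in samples numbered 3 and 4 than in 1 (for number 4 by -0.83, 0.73 and 0.57), and EIF4EBP1 is not.

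The arrays of the numbers differed little in brightness: medians ran from 100 to 113 in number 1, 102 to 111 in number 2, 98 to 113 in number 3 and 98 to 111 in number 4. The count of probes above background ran from 21056 to 22843 in number 1 and from 20934 to 22451 in number 4. DMSO at 24 h has no sample 4, so its comparison with groups that have one also sets unequal numbers against each other. Among the members, MLST8 and TSC1 probe A correlated at r = 0.79 over the 27 arrays, and MTOR and RPS6KB1 also at r = 0.79. RHEB correlated with TSC1 probe A at r = -0.88 and with MLST8 at r = -0.82. These correlations are over arrays that share groups and sample numbers and are given as a description.

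By the highest Pearson r over the same 27 arrays among 12663 other named genes, EIF4EBP1 was most like RPP25 (r = 0.85) and FZD9 (0.84). RHEB was most like CACYBP and HIGD1A (both 0.95), and MTOR most like MAP1A and STIP1 (both 0.89). TSC1 probe A was most like BDP1 (0.96) and MYCBP2 (0.95), and RPS6KB1 most like N4BP2 and KCTD20 (both 0.91). MLST8 was most like RETREG2 (0.88) and PCED1A (0.87), AKT1S1 most like ERF (0.83) and MGAT1 (0.82), and RPTOR most like SNORD109A (0.81) and RNF121 (0.77). The points again share group and sample number.

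Of 78 listed genes that feed into or out of the complexes, 60 were measured, each by its brightest kept probe with a gene name. In PP242 against DMSO at 24 h, 9 of the 60 were higher and 7 lower, beside 6.27% and 6.77% of all probes, with a median difference of 0.03 over the 60 and 0.01 over all probes. At 48 h 3 were higher and 2 lower, beside 2.47% and 2.98% of all probes, and at 72 h 2 and 5, beside 1.70% and 2.77%. Blocking on the sample number made these 7 and 2 at 48 h, where it called 11.4% of all probes, and 6 and 8 at 72 h, where it called 9.28%.

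DDIT4, the hypoxia-induced inhibitor of complex 1, gave the largest difference of the 60 genes between DMSO in hypoxia and the control at each time. Its intensities were 340 to 642 in the control, 2148 to 3038 in DMSO at 24 h, 3329 to 4890 at 48 h and 3813 to 3921 at 72 h. In PP242 they were 687 to 993 at 24 h, 1015 to 1717 at 48 h and 657 to 1676 at 72 h. All the PP242 arrays thus lay between the control and the DMSO arrays. DMSO was above the control by 2.56, 3.65 and 3.50 at the 3 times (limma adjusted p of 1.10e-07, 6.13e-12 and 1.16e-11). PP242 was below DMSO by log2 differences of -1.22, -1.73 and -1.72 (limma adjusted p of 0.000895, 1.29e-05 and 1.11e-05).

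On the input side of PI3K and AKT, 2 of 8 genes were higher in PP242 at 24 h and 0 lower, beside 6.27% and 6.77% of all probes. IRS2, an insulin receptor adaptor, was higher by 1.52 at 24 h (SE 0.26, limma adjusted p = 0.000162), 1.53 at 48 h and 1.03 at 72 h, and PDPK1, the kinase that activates AKT and S6 kinase, by 0.36 at 24 h (adjusted p = 0.0446). Of the AMPK subunits and hypoxia inputs, PRKAB2, a regulatory subunit of AMPK, was higher in PP242 at 24 h by 0.92 (limma adjusted p = 0.00172), and its effect at 72 h differed from that at 24 h by -1.36 (adjusted p = 0.00108). DDIT4L, a relative of DDIT4 above background on 15 arrays, was lower in PP242 at 72 h by a difference of -0.93 (limma adjusted p = 0.000342).

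Among other substrates and effectors, 3 of 15 were higher in PP242 at 24 h and 1 lower, beside the same 6.27% and 6.77%. ULK1, the autophagy kinase that complex 1 inhibits, was higher by 1.08 (SE 0.20, limma adjusted p = 0.000391), EIF4B, an initiation factor, by 1.06 (adjusted p = 0.000197) and EIF4EBP3, a relative of EIF4EBP1, by 0.77 (adjusted p = 0.000207). EIF4EBP3 was thus higher where EIF4EBP1 was lower. SGK1, a kinase activated by complex 2, was higher in PP242 by 1.32 at 48 h (limma adjusted p = 0.00240) and 1.80 at 72 h (adjusted p = 6.31e-05). In DMSO against the control SGK1 differed by -1.42 at 48 h and -1.75 at 72 h (adjusted p = 2.50e-05), comparisons that share the DMSO arrays.

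On the amino acid arm, 2 of 11 GATOR, KICSTOR and sensor genes were higher in PP242 at 24 h and 3 lower, again beside 6.27% and 6.77%. WDR59, of the GATOR2 complex, was higher by 0.91 (limma adjusted p = 4.27e-05), while SEC13 differed by -0.78 (adjusted p = 0.0221) and SESN3, a sestrin, by -0.59 (adjusted p = 0.0320). SESN3 stayed lower in PP242 by differences of -0.97 at 48 h and -1.66 at 72 h (limma adjusted p = 1.81e-07). Of the Rag GTPases and their partners 1 of 12 was higher at 24 h and 1 lower, near the same shares of all probes. They were RRAGB, higher by 0.53 (limma adjusted p = 0.00230), and FNIP2 with -0.73 (adjusted p = 0.00277). FLCN, the GTPase-activating partner of the Rags, differed by -1.08 in PP242 at 72 h (limma adjusted p = 0.000126) and RRAGC by -0.51 (adjusted p = 0.0347). Of 6 other complex subunits and assembly factors, TBC1D7, the third subunit of the TSC complex, was lower at 24 h with -0.45 (limma adjusted p = 0.0449), and 0 were higher, beside 6.77% and 6.27% of all probes.

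In DMSO against the control, 1 of the 60 genes was higher and 0 lower at 24 h (2 and 1 when blocked on the sample number, against 1.34% of all probes), beside 0.447% and 0.0639%. At 48 h 7 were higher and 3 lower, beside 3.78% and 3.62%, and at 72 h 12 and 5, beside 7.45% and 7.94%. DEPTOR, an inhibitory subunit of both complexes, was higher by 0.91 at 48 h and 1.28 at 72 h (SE 0.12, limma adjusted p = 1.84e-08). EIF4B was higher by 1.11 at 72 h (limma adjusted p = 2.66e-05) and LPIN1, a lipid phosphatase that complex 1 phosphorylates, by 0.74 (adjusted p = 8.71e-05). WDR59 (0.81), SESN3 (0.85), NPRL2 of the GATOR1 complex (0.45), RRAGB (0.72), FLCN (1.00), its partner FNIP1 (0.70) and PRKAB2 (0.65) were also higher at 72 h. AKT1 (-0.53), PIK3CB (-0.49, above background on 17 arrays) and TBC1D7 (-0.44) were lower at 72 h, and PRKAG2, an AMPK subunit, was lower at 48 h (-0.55). From 24 h to 72 h in DMSO, 13 of the 60 were higher and 1 lower, SGK1 (-1.48), beside 4.53% and 5.13% of all probes.

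**Figure D5:**
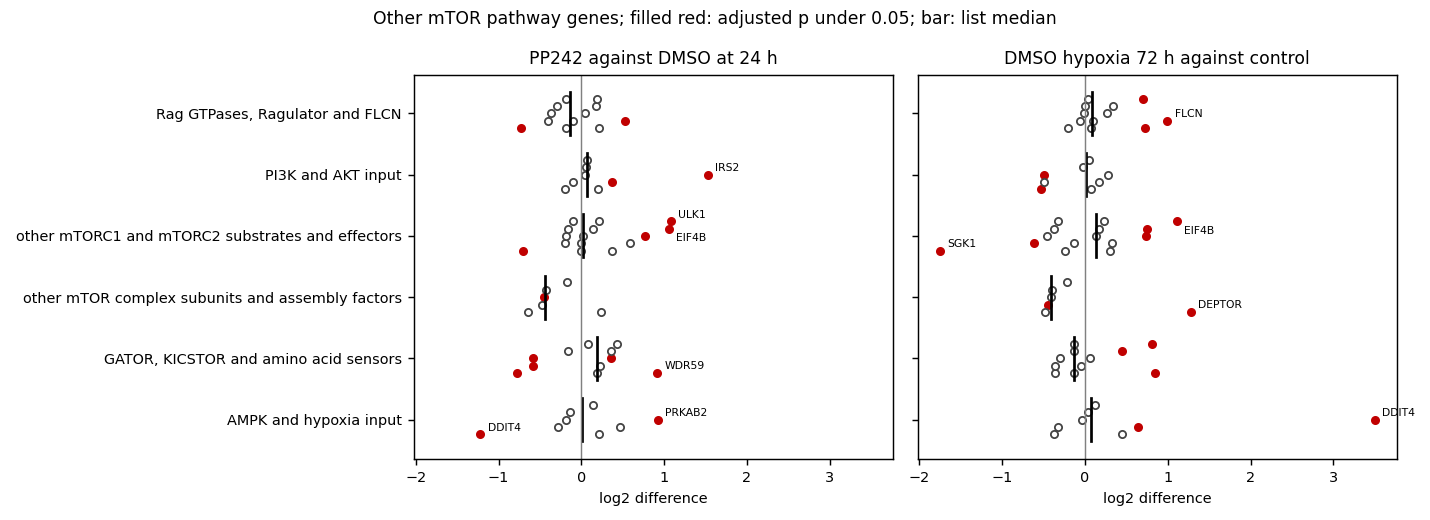
Log2 difference (x axis) of each measured gene in the 6 lists of other pathway genes (y axis), for PP242 against DMSO at 24 h and for DMSO at 72 h against the control, with filled red points for adjusted p under 0.05 and a bar at each list's median. DDIT4 lies furthest out in hypoxia at 72 h (3.50), and IRS2 furthest up in PP242 at 24 h (1.52).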

How the data were processed

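Total RNA was the starting material, and biotin-labelled cRNA was hybridised to 27 Illumina arrays. The deposited non-normalized table gives 1 intensity per probe, as whole numbers without detection p-values. A deposited value table, quantile normalized by the authors judging from its values (within 2.08% of such a normalization; column median 109.561, linear scale), was an alternative on the log2 scale. No sample column was left unmapped (0).

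From the intensities, normexp correction (offset 16), log2 and quantile normalization were computed over 48107 probes with limma 3.58.1 in R 4.3.3. As no detection p-values were given, each array's background was taken as its signal mode (density bandwidth 1.5) with the SD mirrored from below the mode, and a probe needed p under 0.05 on 3 arrays or more. Of the value table's probes 23495 had 1 symbol, 1 several and 3871 none in the platform annotation (23471 updated by gene identifier, 0 changed). Differences on this scale understate changes of dim probes.

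A linear model over the 7 groups with empirical Bayes moderation gave 10 comparisons, adjusted by Benjamini-Hochberg over all 31318 kept probes. The fit was tested on simulated data that held no effect of the sample number, so that test does not cover such effects. Same-numbered samples deviated together (every pair's r over 0.1) for PP242 against DMSO at 24, 48 and 72 h (lowest r 0.138, 0.204 and 0.144), DMSO at 24 h against control (0.114) and the changes of the PP242 effect from 24 to 48 h (0.103) and 48 to 72 h (0.144). Blocked values stand beside those results where a call changed or a count of calls moved by over 1.5 times.

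The members and gene lists were chosen with earlier results of these data known. From each list up to 3 called genes per comparison with the smallest p could be named, DDIT4 always, and per member the 2 genes of highest r. Leaving out samples numbered 4 was added after seeing the data. The number of arrays limits the precision.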

Additional observations from a re-analysis of the deposited data

Results flagged for a closer look

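AKT1S1 in DMSO at 48 h had a single array apart from the rest. Sample 4 read 5.97 on the log2 scale (143 intensity units), and the other 3 lay between 5.68 and 5.69, so that its gap was 0.951 of the range of the group. It was the 1 such array among 72 groups of 4 tested, and chance alone flags about 1 group in 20.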

How the results depend on the processing

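Of 2318 member values recomputed under the alternatives, 2278 stayed on the same side of the threshold, 39 gained a call, 1 lost it, and 0 changed direction with a call. EIF4EBP1 was lower in PP242 at 24 h in all 17 alternatives, with differences of -0.82 to -0.41 and limma adjusted p of 3.24e-05 to 0.00918. For RHEB in the same comparison the adjusted p ran from 0.00450 to 0.192 and the difference from -1.27 to -0.74.

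The count of called members for PP242 against DMSO at 24 h rose from 1 to 2, by RHEB, with 1 median per array, with probes above background on all 27 arrays, with 1 row per gene and without samples numbered 4. It was 3 with the replicate block and 1 to 2 with a replicate left out. At 48 h it was 1 (EIF4EBP1) without background correction, with 1 median per array and with probes above background on all arrays, and 0 to 1 with a replicate left out. At 72 h it was 1 with the block. For DMSO at 48 h against control it was 1 with 1 median per array (RPS6KB1) and 2 with the block. At 72 h it was 1 (EIF4EBP1) with an offset of 50, without background correction, in the authors' table, with all-array probes and with 1 row per gene, 2 with 1 median per array, 3 with the block and 0 to 2 with a replicate left out. For DMSO at 72 h against 24 h it was 0 to 1 with a replicate left out. For the change of the PP242 effect from 24 h to 72 h it was 1 (EIF4EBP1, or RHEB without samples numbered 4) under the same settings as at 72 h against control, with 1 median per array and without samples numbered 4, and 2 with the block. The cause was not tested, except that the filters test fewer probes.

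DMSO at 48 or 72 h against control missed the 0.1 pairing bound, as did 72 h against 24 h. So did the change from 24 to 72 h. Lowest r was 0.094, 0.08, 0.093 and 0.093 (medians 0.18 to 0.34). The block moved all-probe counts there from 2317 to 4472, 4821 to 7205, 3026 to 4871 and 2584 to 4432. In the paired comparisons it moved them from 4084 to 6129, 1706 to 3579 and 1399 to 2907 for PP242 at 24, 48 and 72 h, 160 to 421 for DMSO at 24 h, and 680 to 1801 and 14 to 529 for the changes from 24 to 48 h and 48 to 72 h; beside the blocked values in the report it changed no other member call there. With the block the 60 other genes gave 15 higher and 7 lower in place of 13 and 1 for DMSO at 72 h against 24 h, and 11 and 7 in place of 7 and 3 for DMSO at 48 h against control; RHEB (0.84, adjusted p = 0.0230) and EIF4EBP1 (0.52, adjusted p = 0.0490) were then called for the change from 24 h to 72 h. Leaving out sample 1 or 2 of DMSO at 24 h gave all-probe counts of 2601 or 2616 for PP242 at 24 h, 1861 or 1848 for DMSO at 72 h against 24 h and 308 or 325 for the change from 24 to 48 h. Leaving out sample 1 gave 1088 for PP242 at 48 h (PP242 sample) and 1443 for DMSO at 48 h against control (DMSO sample). For DMSO at 24 h against control the count was 104 or 93 without sample 2 or 3. Without samples numbered 4 the 60 other genes gave 7 higher and 5 lower for PP242 at 24 h, and 11 and 3 for DMSO at 72 h against control. The all-probe count for 48 to 72 h was 110 to 142 without background correction, with an offset of 50, in the authors' table or with all-array probes, and 76 with 1 row per gene. Probes near background (RICTOR, TSC2) limit what could be detected, and the 3 DMSO arrays at 24 h enter 5 of the 10 comparisons.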
